A study of Mus musculus with 8 samples.

Results

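The genes described here are 52 cell cycle and replication licensing genes of the mouse, out of 21900 protein-coding genes in the RefSeq table for GRCm38.p6 (mm10). They were taken from a named list in 7 classes, and a gene was counted as having a peak when a CUT&RUN peak lay inside it or within 2 kb of it. In CUT&RUN a nuclease held by an antibody cuts out the DNA around a protein, and the released fragments are sequenced. The 2 proteins mapped, METTL3 and METTL14, together write N6-methyladenosine on RNA, and the study examined where each sits on the genome. METTL14 was mapped with a rabbit antibody in Mettl3 CKO cells and in Mettl3 control cells. METTL3 was mapped with another rabbit antibody in Mettl14 CKO cells and in Mettl14 control cells. All 4 groups were C57BL/6 embryonic stem cells grown in serum medium with LIF and the inhibitors CHIR99021 and PD0325901, with 2 libraries per group. CKO is left unexplained in the labels, as is how the lines were derived, and it is not stated whether replicate libraries were separate cultures, so their spread may be technical. Each antibody was used in its own line, so effects of antibody and line cannot be told apart.

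Progress through the cell cycle is driven by cyclins and the kinases they activate, and held back by the INK4 and CIP/KIP families of kinase inhibitors. Retinoblastoma proteins restrain E2F transcription factors until cyclin-dependent kinases (CDKs) phosphorylate them, and E2F factors then switch on genes for DNA replication. In G1, ORC, CDC6 and CDT1 load the MCM helicase at replication origins, a step called licensing, and geminin blocks CDT1 afterwards. Mouse embryonic stem cells have a short G1 phase and are known for low levels of several CDK inhibitors.

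METTL14 gave 3922 and 1439 peaks in the Mettl3 CKO libraries, against 3129 and 3546 peaks in the Mettl3 control libraries. METTL3 gave 242 and 344 peaks in the Mettl14 CKO libraries, against 353 and 341 in the Mettl14 control libraries. Read depth and peak height are unknown, because every peak carries the same deposited score of 1, so each value below is the presence of a peak and its position. Peak lists hold no expression and can check neither the deletion nor the cell type. Of 7 stem cell factor genes, 5 had a METTL14 peak in at least 1 library, against 20.8% of all protein-coding genes. None of the 7 had a replicated region, meaning overlapping peaks merged over the pair of libraries of one group. A replicated METTL14 region lay at 3.15% of all protein-coding genes in Mettl3 CKO cells and 3.82% in Mettl3 control cells, so 0 of 7 is near the background.

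METTL14 peaks lay at 29 of the 52 cell cycle genes (55.8%) in at least 1 of the 4 METTL14 libraries, against 20.8% of all protein-coding genes. Mettl3 CKO replicate 1 had a peak at 24 of the 52 genes and Mettl3 CKO replicate 2 at 9, against 13 and 12 in Mettl3 control replicates 1 and 2. Among all protein-coding genes the shares were 12.9% and 4.91% in the CKO libraries and 9.71% and 11.2% in the control libraries. Of these 29 genes, 13 had a peak in 1 library only, 9 of them in Mettl3 CKO replicate 1, the longest list. A further 7 genes had a peak in 2 libraries, 5 in 3 libraries and 4 in all 4. Genes with a peak in exactly 1, 2 or 3 METTL14 libraries made up 25%, 13.5% and 9.62% of the list. The same shares were 10.8%, 4.59% and 2.87% of all protein-coding genes. The 4 genes with a peak in every METTL14 library were Mcm4, Cdkn2a, Cdkn2b and Cdkn2c, or 7.69% of the list against 2.53% of all protein-coding genes. Apart from Mcm4, these are INK4 inhibitor genes, although Cdkn2a also encodes an unrelated protein, p19ARF, from a separate start. In the Mettl3 control libraries the Cdkn2a peaks lay only around the start at the gene boundary.

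**Figure D1:**
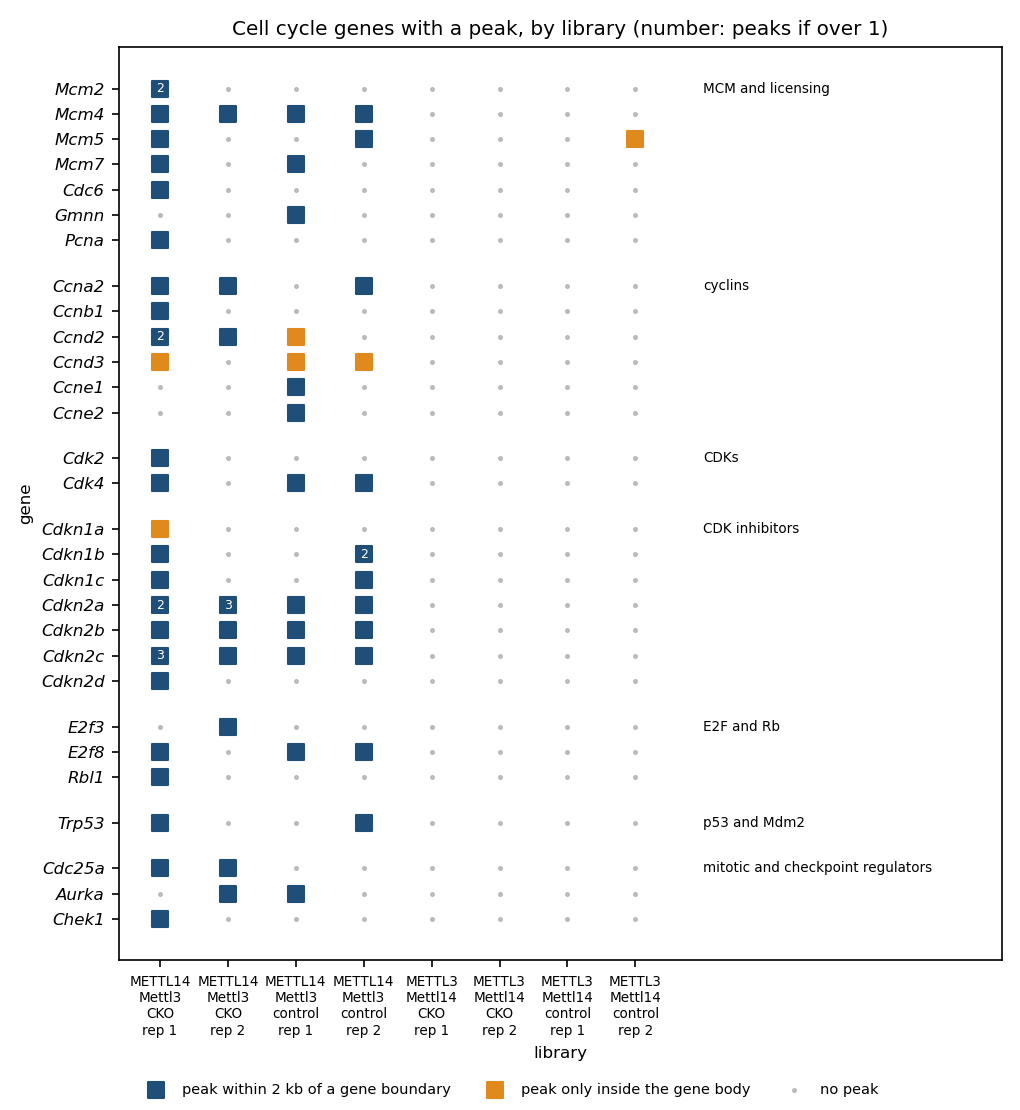
Presence of a peak at the 29 cell cycle genes with at least 1 peak, by gene class (rows) and library (columns, CKO left of control within each antibody). Blue squares are peaks within 2 kb of a gene boundary, orange squares peaks only deeper inside the gene, and Mcm4, Cdkn2a, Cdkn2b and Cdkn2c fill all 4 METTL14 columns while the METTL3 columns hold 1 peak, at Mcm5.

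The classes differed in how many genes carried a METTL14 peak. All 7 CDK inhibitor genes had a peak in at least 1 library, as did 6 of 8 cyclin genes, 7 of 10 MCM and licensing genes and 2 of 4 CDK genes. The E2F and Rb class had 3 of 11, the mitotic and checkpoint class 3 of 10 and the p53 pair 1 of 2. Set beside 20.8% of all protein-coding genes, the E2F and Rb class at 27.3% and the mitotic class at 30% were near the background. The inhibitor genes held 24 of the 66 METTL14 peaks although they are short, with a median length of 5125 bp against 17146 bp over all protein-coding genes. The cell cycle genes with a peak had a median length of 11526 bp and those without one 17767 bp, whereas all protein-coding genes with a peak had a median of 25881 bp.

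**Figure D2:**
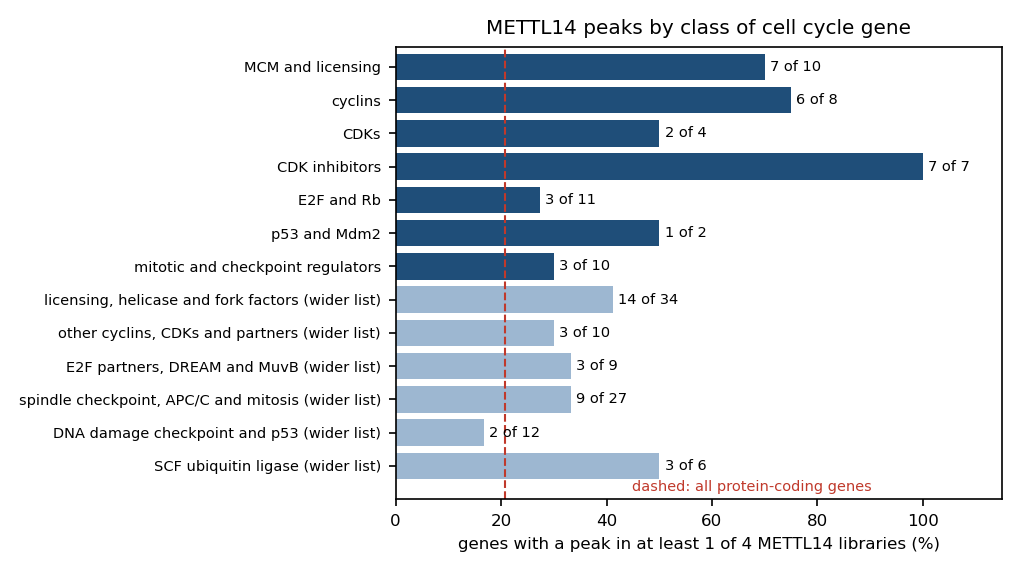
Share of genes in each class with a METTL14 peak in at least 1 of 4 libraries (x axis, percent), for the 7 classes of the 52 genes (dark bars) and 6 classes of a wider list of 98 cell cycle and replication genes (light bars). The dashed line marks 20.8% of all protein-coding genes, with the CDK inhibitors at 7 of 7 farthest above it and the DNA damage checkpoint class at 2 of 12 near it.

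Among the licensing genes, Mcm4, a subunit of the replicative helicase, had the most closely placed peaks. They lay at chr16:15637613-15637761 and chr16:15637610-15637758 in Mettl3 CKO replicates 1 and 2, against chr16:15637615-15637763 in both Mettl3 control replicates. All 4 peaks therefore start within a few bases of each other, and the replicated regions of CKO and control cells share 147 bp. They begin 210 to 215 bp beyond the Mcm4 boundary and, at the same time, 166 to 171 bp inside Prkdc, the gene of the catalytic subunit of DNA-dependent protein kinase, whose boundary is separated from that of Mcm4 by 43 bp. The peak cannot be assigned to one gene of the pair. Mcm5 and Mcm7, also helicase subunits, each had a METTL14 peak in 2 libraries, 1 of each genotype. At Mcm5 the peak midpoint stood at -689 bp from the listed start (negative values are upstream) in Mettl3 CKO replicate 1 and at -202 bp in Mettl3 control replicate 2. At Mcm7 it stood at -438 bp in Mettl3 CKO replicate 1 and at -717 bp in Mettl3 control replicate 1. Neither pair of peaks overlapped. Both Mcm7 peaks lay outside Mcm7 and inside the neighbouring gene Ap4m1, so they cannot be assigned to one gene of that pair. Mcm2, Cdc6 (a helicase loader) and Pcna (the sliding clamp of DNA polymerases) had peaks in Mettl3 CKO replicate 1 only, and Gmnn, the gene of geminin, in Mettl3 control replicate 1 only. No METTL14 peak lay at Mcm3, Mcm6 or Cdt1.

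Of the cyclin genes, Ccna2 and Ccnd2 had a replicated region in Mettl3 CKO cells and Ccnd3 had one in Mettl3 control cells. Ccna2 encodes cyclin A2, which drives S phase and mitotic entry. Its peaks lay at chr3:36572054-36572202 and chr3:36572084-36572232 in Mettl3 CKO replicates 1 and 2, against chr3:36572053-36572201 in Mettl3 control replicate 2 and none in Mettl3 control replicate 1. The position was therefore shared by the genotypes, and the region lay inside Ccna2 and within 2 kb of the neighbouring gene Bbs7. At Ccnd2, the gene of a G1 cyclin that binds CDK4 and CDK6, the CKO peaks lay 476 and 521 bp outside the gene boundary, at chr6:127152664-127152812 and chr6:127152709-127152857. Mettl3 CKO replicate 1 had another peak inside the gene, at chr6:127130518-127130666. No control peak overlapped the replicated region, and the single control peak, at chr6:127142416-127142564 in Mettl3 control replicate 1, was also inside the gene. Ccnd3, another D-type cyclin gene, has 2 listed starts. Its peaks lay deep in the gene, upstream of the inner start at chr17:47593467. Midpoints lay 6272 bp downstream of the outer start in Mettl3 CKO replicate 1, against 6227 and 6283 bp in the Mettl3 control replicates. These 3 peaks formed a single cluster, and Mettl3 CKO replicate 2 had none there. Ccnb1, a mitotic cyclin gene, was called in Mettl3 CKO replicate 1 only, and Ccne1 and Ccne2, which encode the G1/S cyclins E, in Mettl3 control replicate 1 only. Ccnb2 and Ccnd1 had no METTL14 peak.

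Of the kinase genes, Cdk4, which encodes a partner of the D-type cyclins, had a peak around its start in 3 libraries. Midpoints stood at -41 bp in Mettl3 CKO replicate 1, against -337 bp and 171 bp in Mettl3 control replicates 1 and 2. The 2 control peaks were 359 bp apart, so Cdk4 was called in both control libraries without a replicated region. Cdk2, the gene of the partner of cyclins E and A, had 1 peak in Mettl3 CKO replicate 1, beyond its end. That peak lay inside Pmel and within 2 kb of Rab5b. Cdk1 and Cdk6 had none.

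The INK4 inhibitors bind CDK4 and CDK6 and keep D-type cyclins from activating them. Their genes Cdkn2a and Cdkn2b lie 11669 bp apart on chromosome 4, and Cdkn2c lies elsewhere on the same chromosome. Cdkn2b, which encodes p15INK4b, had a replicated region in both genotypes. Its peak midpoints lay 289 and 242 bp downstream of the start in Mettl3 CKO replicates 1 and 2, against 1 and 126 bp in Mettl3 control replicates 1 and 2. The CKO peaks thus lay further into the gene than the control peaks, and the 2 replicated regions share 33 bp. The control peaks overlapped each other by only 24 bp, and with a reciprocal overlap of 50% required, the control region was no longer replicated.

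Cdkn2c, the gene of p18INK4c, had a replicated region in Mettl3 control cells, at chr4:109666836-109667033. Peak midpoints stood at -199 bp in Mettl3 CKO replicate 2, against -203 and -154 bp in the Mettl3 control replicates. Mettl3 CKO replicate 1 had 3 peaks at other places around the gene, the nearest with its midpoint at 87 bp. The closest CKO peaks were 137 bp apart, so all 4 libraries had a peak but only the control libraries had a replicated region. Cdkn2a, from which the unrelated proteins p16INK4a and p19ARF are made from separate starts, had 7 peaks and no replicated region in either genotype. Around the outer start, midpoints stood at -345 and 291 bp in Mettl3 CKO replicates 1 and 2, against 168 and -116 bp in Mettl3 control replicates 1 and 2. Around the inner start, peaks were called in CKO libraries only, at -224 bp in replicate 1 and at -7 and 482 bp in replicate 2. The peaks nearest to each other were 68 bp apart in CKO cells and 135 bp apart in control cells.

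**Figure D3:**
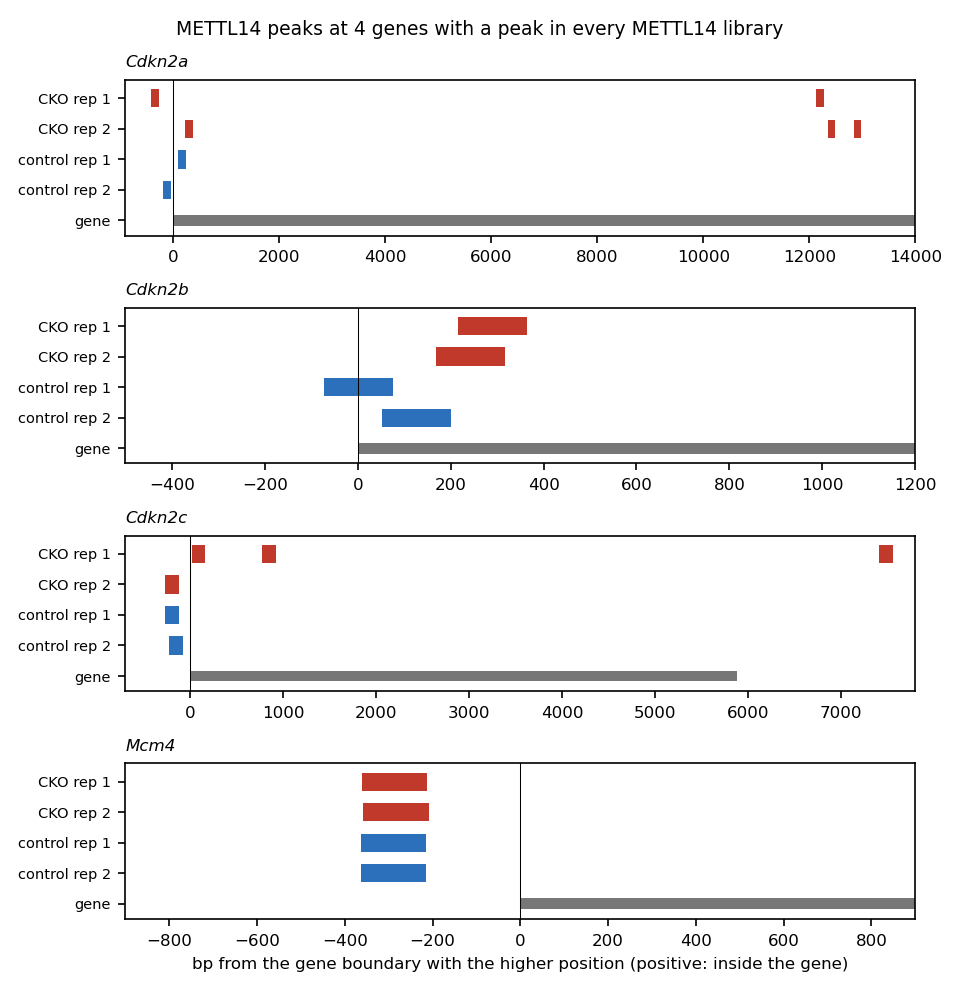
Position of METTL14 peaks (bars) at Cdkn2a, Cdkn2b, Cdkn2c and Mcm4, in bp from the gene boundary with the higher position, with Mettl3 CKO libraries in red above Mettl3 control libraries in blue and the gene in grey (cut off where it leaves the panel). The Mcm4 peaks stack in all 4 libraries, the Cdkn2b peaks step into the gene in CKO libraries, and the inner Cdkn2a peaks are present in CKO libraries only.

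The promoters of these INK4 genes are shown because METTL14 peaks overlap the stretch around their starts. Each stretch runs from 250 bases before to 50 bases after a RefSeq start on GRCm38.p6, 5′ to 3′ on the strand of the gene, and capitals mark bases under a METTL14 peak of any library. In Cdkn2b (chr4:89310983-89311282, minus strand) the capitals belong to Mettl3 control replicate 1. In Cdkn2c (chr4:109666707-109667006, minus strand) the capitals at the 5′ end lie under peaks of Mettl3 CKO replicate 2 and both Mettl3 control replicates, and those at the 3′ end under a peak of Mettl3 CKO replicate 1. The Cdkn2a stretches, chosen after the peaks had been seen, are the inner start (chr4:89282143-89282442, minus strand), covered by both CKO libraries, and the outer start (chr4:89294570-89294869, minus strand), covered by Mettl3 control replicate 2.
Cdkn2b: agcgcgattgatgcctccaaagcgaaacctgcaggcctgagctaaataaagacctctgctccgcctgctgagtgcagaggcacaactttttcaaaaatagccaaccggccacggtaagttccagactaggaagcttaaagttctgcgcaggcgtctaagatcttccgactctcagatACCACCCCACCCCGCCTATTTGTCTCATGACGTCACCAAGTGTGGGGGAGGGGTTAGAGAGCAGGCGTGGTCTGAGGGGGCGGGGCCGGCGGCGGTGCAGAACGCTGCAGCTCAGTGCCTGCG
Cdkn2c: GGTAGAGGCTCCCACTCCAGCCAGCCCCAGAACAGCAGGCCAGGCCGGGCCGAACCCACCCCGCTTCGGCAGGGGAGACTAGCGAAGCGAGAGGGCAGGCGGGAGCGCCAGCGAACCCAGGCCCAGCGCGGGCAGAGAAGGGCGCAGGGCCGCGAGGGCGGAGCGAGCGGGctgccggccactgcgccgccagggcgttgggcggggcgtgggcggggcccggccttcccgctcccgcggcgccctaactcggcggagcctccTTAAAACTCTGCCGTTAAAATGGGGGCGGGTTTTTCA
Cdkn2a inner start: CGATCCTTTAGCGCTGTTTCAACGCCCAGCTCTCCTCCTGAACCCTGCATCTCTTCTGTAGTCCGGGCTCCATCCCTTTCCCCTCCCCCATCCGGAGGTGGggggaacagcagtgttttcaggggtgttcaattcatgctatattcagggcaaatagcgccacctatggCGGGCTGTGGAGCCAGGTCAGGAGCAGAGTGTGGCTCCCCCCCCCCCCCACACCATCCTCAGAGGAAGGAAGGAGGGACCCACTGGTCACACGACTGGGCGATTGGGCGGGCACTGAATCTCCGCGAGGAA
Cdkn2a outer start: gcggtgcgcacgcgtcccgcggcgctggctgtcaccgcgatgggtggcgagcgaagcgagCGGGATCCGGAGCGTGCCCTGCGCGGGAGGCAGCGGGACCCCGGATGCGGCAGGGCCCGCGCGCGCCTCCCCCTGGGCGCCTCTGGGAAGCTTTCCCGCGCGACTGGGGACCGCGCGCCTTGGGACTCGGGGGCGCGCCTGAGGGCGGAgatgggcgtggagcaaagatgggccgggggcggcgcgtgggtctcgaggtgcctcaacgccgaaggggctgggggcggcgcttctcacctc
The outer Cdkn2a stretch holds an E2F core, TTTCCCGC, whose first base stands at -99 from the start and which lies under the control peak. No E2F core was found in the other 3 stretches. GC boxes (GGGCGG) were present in all 4, including 1 under the Cdkn2b peak at position 4 from the start.

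The remaining inhibitor genes were called in fewer libraries. Cdkn1b and Cdkn1c, which encode the CIP/KIP inhibitors p27 and p57, each had peaks in Mettl3 CKO replicate 1 and Mettl3 control replicate 2. At Cdkn1b the midpoint lay 111 bp downstream of the start in Mettl3 CKO replicate 1, against -288 and 134 bp in Mettl3 control replicate 2. At Cdkn1c the peaks flanked the gene boundary, 39 bp outside it in Mettl3 CKO replicate 1 and 40 bp inside it in Mettl3 control replicate 2. Cdkn1a, the gene of the p53 target p21, and Cdkn2d, the gene of p19INK4d, had a peak in Mettl3 CKO replicate 1 only. Of the genes in this class, Mettl3 CKO replicate 1 marked 7 and Mettl3 CKO replicate 2 marked 3, against 3 and 5 in Mettl3 control replicates 1 and 2. The same libraries marked 12.9% and 4.91% of all protein-coding genes in CKO cells, against 9.71% and 11.2% in control cells. The CKO lists held 3922 and 1439 peaks.

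In the E2F and Rb class, E2f8, which encodes an atypical E2F that represses transcription, had a replicated region in Mettl3 control cells at chr7:48880842-48881016. Midpoints lay 551 bp downstream of the start in Mettl3 CKO replicate 1, against 680 and 654 bp in the Mettl3 control replicates, and Mettl3 CKO replicate 2 had none. E2f3, an activating E2F gene, was called in Mettl3 CKO replicate 2 only, and Rbl1, the gene of the retinoblastoma relative p107, in Mettl3 CKO replicate 1 only. No METTL14 peak lay at E2f1, E2f2, E2f4, E2f5, E2f6, E2f7, Rb1 or Rbl2. Trp53, the gene of p53, had peaks in Mettl3 CKO replicate 1 and Mettl3 control replicate 2 that did not overlap. The CKO peak lay outside Trp53 and inside Wrap53, and the control peak inside Trp53 and within 2 kb of Wrap53. Mdm2, which encodes the ubiquitin ligase that degrades p53, had none.

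Cdc25a was the one cell cycle gene of the 52 (1.92%) with a METTL14 peak in both Mettl3 CKO libraries and in neither Mettl3 control library, a pattern seen at 0.466% of all protein-coding genes. It encodes a phosphatase that removes inhibitory phosphates from CDK2 and CDK1. The peaks lay at chr9:109875086-109875234 and chr9:109875085-109875233, 1 bp apart, with midpoints at -419 and -420 bp from the start. The opposite pattern, a peak in both Mettl3 control libraries and neither Mettl3 CKO library, was seen at 0 of the 52 genes and at 0.89% of all protein-coding genes. Aurka, the gene of a mitotic kinase that matures centrosomes, had a peak in 1 library of each genotype, at chr2:172370708-172370856 in Mettl3 CKO replicate 2 and chr2:172370709-172370857 in Mettl3 control replicate 1. That position lies inside both Aurka and Cstf1, which overlap there on opposite strands. Chek1, a checkpoint kinase gene, was called in Mettl3 CKO replicate 1 only. Cdc20, Cdc25b, Cdc25c, Plk1, Aurkb, Bub1 and Wee1 had no METTL14 peak.
The promoters of Cdc25a (chr9:109875329-109875628, plus strand) and E2f8 (chr7:48881547-48881846, minus strand) are shown because a replicated region lies within 2 kb of each start, outside the stretch printed. Capitals mark an E2F core (TTTGGCGC) in Cdc25a and, in E2f8, a CHR element, TTTGAA read on the opposite strand.
Cdc25a: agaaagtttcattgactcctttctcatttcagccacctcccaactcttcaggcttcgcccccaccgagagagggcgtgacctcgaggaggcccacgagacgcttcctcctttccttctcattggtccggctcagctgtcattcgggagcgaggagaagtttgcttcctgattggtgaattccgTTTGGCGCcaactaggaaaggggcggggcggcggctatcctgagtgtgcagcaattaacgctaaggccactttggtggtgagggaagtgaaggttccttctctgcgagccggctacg
E2f8: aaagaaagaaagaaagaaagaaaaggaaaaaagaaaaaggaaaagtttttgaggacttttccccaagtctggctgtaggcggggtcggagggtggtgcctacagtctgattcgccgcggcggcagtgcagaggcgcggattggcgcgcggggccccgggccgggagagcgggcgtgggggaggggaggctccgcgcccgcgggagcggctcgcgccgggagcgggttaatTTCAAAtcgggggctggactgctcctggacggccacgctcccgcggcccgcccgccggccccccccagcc

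A replicated METTL14 region lay at 5 of the 52 genes in Mettl3 CKO cells, against 5 of the 52 in Mettl3 control cells. The same rule marked 3.15% of all protein-coding genes in CKO cells and 3.82% in control cells. The CKO genes were Mcm4, Ccna2, Ccnd2, Cdkn2b and Cdc25a, and the control genes Mcm4, Ccnd3, Cdkn2b, Cdkn2c and E2f8. Mcm4 and Cdkn2b were in both sets. The share of all protein-coding genes in both sets is not given here, so this overlap has no background beside it. Failing the rule in one genotype was not the same as having no peak there: of the 6 genes replicated in 1 genotype, Ccnd2 and Cdc25a alone had no overlapping peak in either library of the other. This count, too, has no share of all protein-coding genes beside it. Counted by gene and not by region, 7 genes had a peak in both Mettl3 CKO libraries, against 3.91% of all protein-coding genes, and 7 in both Mettl3 control libraries, against 5.37%.

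The number of cell cycle genes with a METTL14 peak did not differ beyond the spread between libraries, at 16.5 ± 10.6 in Mettl3 CKO cells and 12.5 ± 0.707 in Mettl3 control cells (SD, n = 2 each, difference 4, two-sided exact permutation p = 1). The 2 CKO lists differ most in length, and the difference turned to -3.5 without Mettl3 CKO replicate 1 and grew to 11.5 without Mettl3 CKO replicate 2. Divided by the share among all protein-coding genes of the same library, the share of cell cycle genes was 3.58 and 3.52 times as high in the Mettl3 CKO libraries, against 2.58 and 2.07 times in the Mettl3 control libraries. This ratio was 3.55 ± 0.0427 in CKO cells and 2.32 ± 0.361 in control cells (SD, n = 2 each, difference 1.23). The CKO values were both above the control values, but the two-sided exact permutation p was 0.333, the smallest that 2 against 2 libraries allow, and 0.999 after Benjamini-Hochberg adjustment over 3 tests. With every METTL14 list shortened to the 1439 peaks of the shortest one, in the order in which the lists give them, the marked genes were 7 and 9 in the CKO libraries, against 5 and 1 in the control libraries, and the ratios 2.9 and 3.52 against 2.19 and 0.444 (difference 1.9, exact permutation p = 0.333). At that length a replicated region lay at 4 of the 52 genes in CKO cells and 1 in control cells, against 2.22% and 2.01% of all protein-coding genes in CKO and control cells. Cdkn2b kept a peak in 4 METTL14 libraries, Cdkn2c in 3, Cdkn2a in 2 and Mcm4 in 1, and Cdc25a kept both of its CKO peaks. What sets the order of a list is not given in the sources used here.

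Among all protein-coding genes, METTL14 peaks were more frequent at CpG-rich promoters, here those with at least 50% GC and an observed over expected CpG ratio of at least 0.6: they lay at 32.2% of genes with such a promoter and at 10.3% of genes with another. Of the 52 genes, 39 (75%) had a promoter sequence in the RefSeq table, under 80%, so the values that follow are void as a check of the whole list and describe those genes only. Among them 37 (94.9%) were CpG-rich, against 48.3% of 17492 protein-coding genes with a sequence, and the share was alike in cell cycle genes with a METTL14 peak (95.7%) and without one (93.8%). Within CpG-rich promoters, METTL14 peaks lay at 22 of the 37 cell cycle genes (59.5%), against 32.2% of all 8452 such genes. By library the cell cycle genes stood at 51.4% and 16.2% in the Mettl3 CKO libraries and at 24.3% and 21.6% in the Mettl3 control libraries. All CpG-rich genes stood at 20.4% and 7.57% in the CKO libraries and at 14.6% and 17.7% in the control libraries. The part of promoter type in the result was not tested.

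**Figure D4:**
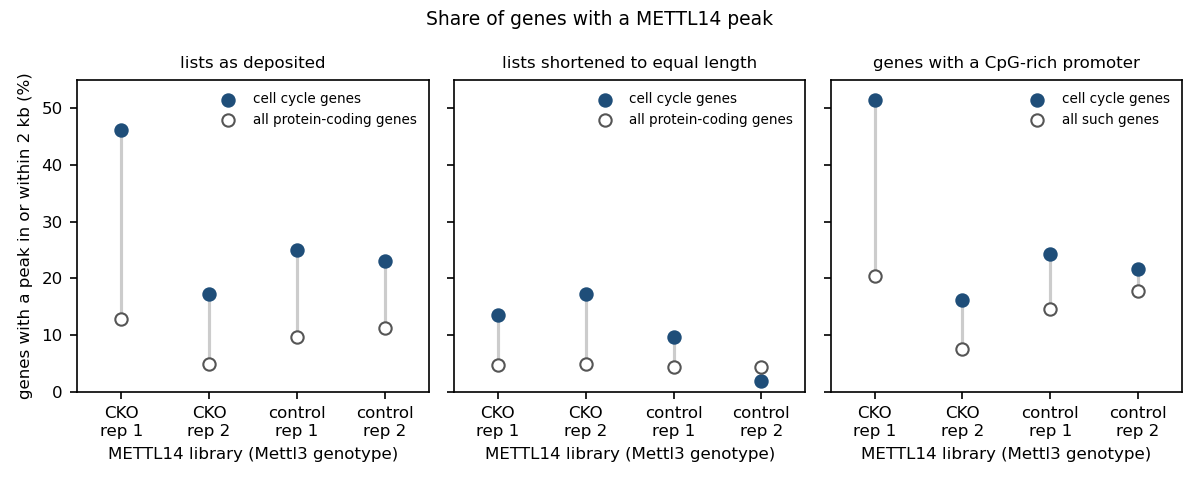
Percent of genes with a METTL14 peak (y axis) in each METTL14 library, Mettl3 CKO left of Mettl3 control, for the cell cycle genes (filled) and all genes of the same kind (open). The cell cycle genes lie above all genes in every library as deposited, from 46.2% against 12.9% in Mettl3 CKO replicate 1 to 17.3% against 4.91% in Mettl3 CKO replicate 2. They lie below all genes in Mettl3 control replicate 2 at equal list length, with 1.92% against 4.33%.

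METTL14 peaks at cell cycle genes lay mostly near gene boundaries. Of the 66 peaks, 57 (86.4%) were within 2 kb of a gene boundary, against 71.7% of the 8482 METTL14 peaks in or near any protein-coding gene. These shares were not counted alike: the first used the boundaries of the cell cycle gene itself, the second those of any gene, with each peak counted once. Cell cycle genes with a peak were also shorter than all genes with one (medians of 11526 and 25881 bp), and the part of gene length was not tested. Counted by gene, 27 of the 52 (51.9%) had such a peak in at least 1 METTL14 library, against 16.1% of all protein-coding genes. Where a RefSeq start was listed, for 51 peaks at 23 genes, 46 (90.2%) had their midpoint within 2 kb of a start and 37 (72.5%) within 500 bp, with a median distance of 285 bp. Counted the same way, each peak once for each gene it lies in or near, all protein-coding genes with a listed start gave 70.2% within 2 kb and 56% within 500 bp, with a median of 360 bp. The peaks at cell cycle genes fell on both sides of the start, with 26 upstream and 25 downstream. The downstream count includes every peak over 2 kb from a listed start: those deep in Ccnd3, and a peak beyond the end of Cdk2 and of Cdkn2c. This split is not given for all protein-coding genes. Peaks also lay within 2 kb of another protein-coding gene in 15 cases at 7 genes (Mcm4, Mcm7, Pcna, Ccna2, Cdk2, Trp53 and Aurka). Of the 66 peaks, 0 fell in the 80 regions called in all 8 libraries.

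**Figure D5:**
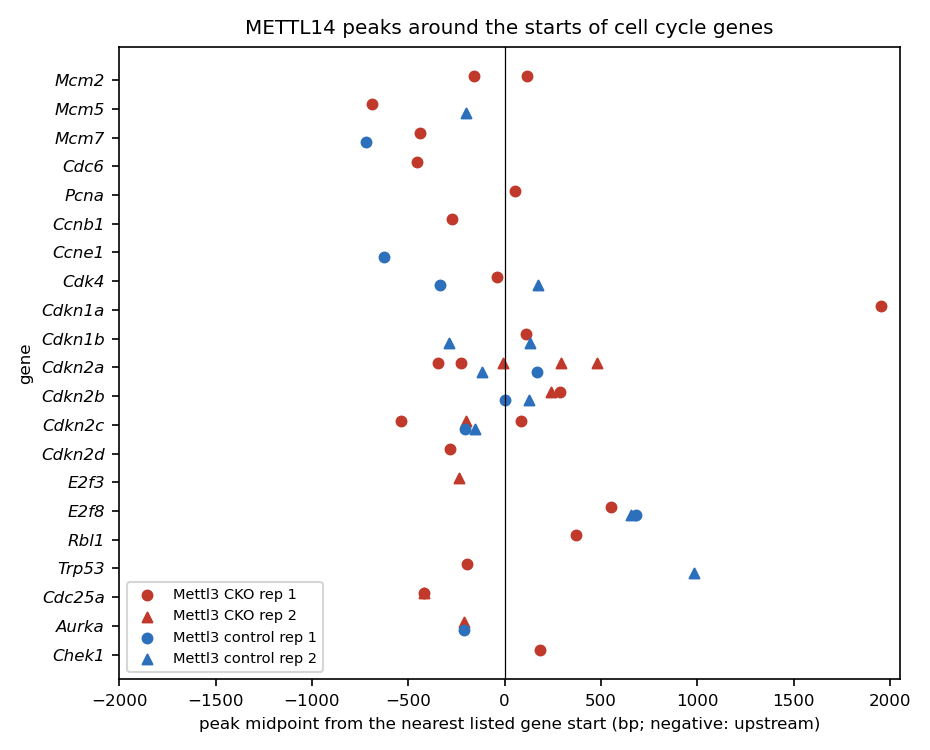
Midpoints of METTL14 peaks in bp from the nearest listed start of each gene (x axis, negative upstream), in Mettl3 CKO (red) and Mettl3 control (blue) libraries, replicate 1 as circles and replicate 2 as triangles, for the 46 peaks within 2 kb. Within 500 bp of a start lie 37 peaks, and within Cdc25a and within Aurka the points coincide.

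Promoter motifs were searched on both strands of the 300 bases around each start, for the same 39 genes. An E2F core (TTTCCCGC, TTTGGCGC, TTTCGCGC or TTTGCCGC) was found in 14 of 39 cell cycle promoters (35.9%), against 3.29% of all promoters. It was about as frequent in cell cycle genes with a METTL14 peak (8 of 23, 34.8%) as in those without one (6 of 16, 37.5%). The CHR element (TTTGAA or TTCGAA), found in promoters of late cell cycle genes, was in 6 of 23 promoters with a peak and 8 of 16 without, and in 20.2% of all promoters. CCAAT boxes (CCAAT) were in 69.2% of cell cycle promoters, against 42.3% of all promoters, and GC boxes (GGGCGG) in 82.1%, against 49.2%. A match is a stretch of letters and not a bound site. Mcm4, Gmnn, Ccna2, Ccnd1, Ccnd2, Ccne2, Cdkn1c, E2f4, E2f5, Rb1, Cdc25c, Aurkb and Wee1 are not covered.

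Few METTL3 peaks lay at these genes. The number with a peak was 0 and 0 in the Mettl14 CKO libraries and 0 and 1 in the Mettl14 control libraries, against 0.393% and 0.584% of all protein-coding genes in the CKO libraries and 0.635% and 0.566% in the control libraries. At such short lists, 0 or 1 of 52 genes is near the background and no difference was detectable (0 in CKO cells and 0.5 ± 0.707 in control cells, SD, n = 2 each, exact permutation p = 1). The single peak lay at chr8:75120436-75120712 in Mettl14 control replicate 2, inside Mcm5 and 11065 bp from its start, away from the METTL14 peaks of that gene. No cell cycle gene had a replicated METTL3 region in either genotype, where the rule marked 0.164% of all protein-coding genes in Mettl14 CKO cells and 0.151% in Mettl14 control cells.

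A wider list of 98 cell cycle and replication genes held no gene of the 52. METTL14 peaks lay at 34 of them (34.7%) in at least 1 library, between the 55.8% of the 52 genes and the 20.8% of all protein-coding genes. The Mettl3 CKO libraries marked 23 and 9 of them (23.5% and 9.18%), against 15 and 17 in the Mettl3 control libraries (15.3% and 17.3%). Among all protein-coding genes the shares were 12.9% and 4.91% in the CKO libraries and 9.71% and 11.2% in the control libraries. A replicated region lay at 7 of the 98 genes (7.14%) in each genotype, against 3.15% of all protein-coding genes in CKO cells and 3.82% in control cells. With METTL14 lists of equal length the count was 5 in CKO cells and 1 in control cells. At that length the shares of all protein-coding genes were 2.22% and 2.01%. Gins1 and Gins2, subunits of the GINS complex that joins MCM and CDC45 in the active helicase, Fbxo5, which encodes the anaphase-promoting complex inhibitor EMI1, and Anapc13, a subunit of that complex, were replicated in both genotypes and called in all 4 libraries. At Anapc13 the midpoints lay 152 and 150 bp downstream of the start in the Mettl3 CKO libraries, against 124 and 106 bp in the Mettl3 control libraries, and at Fbxo5 they stood at -223 and -347 bp in the CKO libraries, against -346 and -239 bp in the control libraries. The CKO set also held Anapc5, another subunit of the complex, its activator gene Fzr1 and Cks1b, the gene of a CDK-binding protein. The control set also held Orc6, a subunit of the origin recognition complex, Pole2, a subunit of DNA polymerase epsilon, and Lig1, which joins lagging-strand fragments. The replicated regions at Anapc13, Cks1b, Orc6, Pole2 and Lig1 also lay in or within 2 kb of another protein-coding gene. They cannot be assigned to a single gene. In the wider list, 30 of the 66 METTL14 peaks, at 18 of the 34 genes with a peak, lay so. Licensing, helicase and fork factors had a peak at 14 of 34 genes, and the DNA damage checkpoint and p53 class had 2 of 12 (16.7%), near the background. METTL3 peaks lay at 4 of the 98 genes (Orc6, Gins4, Prim2 and Skp2), all in Mettl14 control replicate 2. That is 4.08% of the wider list, against 0.566% of all protein-coding genes in that library. Orc6 and Gins4 lie on chromosome 8, as does Mcm5. At Orc6 the METTL14 midpoint lay 61 bp downstream of the start in Mettl3 CKO replicate 1, against 95 and 72 bp in the Mettl3 control replicates. The METTL3 midpoint there lay at 896 bp, and that peak did not overlap the METTL14 peaks.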

How the data were processed

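CUT&RUN peaks of 8 libraries of mouse embryonic stem cells were analysed, 2 per group. Per the submitters' processing notes, CASAVA, Trimmomatic 0.38, Bowtie2 2.4.1, SAMtools and HOMER were used, on mm10, and their roles are not stated. The authors deposited 1 list per library, with the start and end of each peak and a score, which is 1 throughout. The sources used here give no depth, threshold or background library.

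Positions were set against RefSeq genes of GRCm38.p6 with Python 3.11.15, numpy 2.4.6, pandas 2.3.3 and scipy 1.17.1. A gene had a peak when one lay in it or within 2 kb. Peaks sharing at least 1 bp were merged, and a region with both libraries of a group was replicated. Library counts and ratios were compared by exact permutation (two-sided, smallest possible p 0.333) at a threshold of 0.05. The scripts were tested on simulated data. Genes named with values had a replicated region or a peak in 2 or more METTL14 libraries, and of the wider list a replicated region. Promoters printed by rule belong to genes with a replicated region at or within 2 kb of a listed start. The 52 genes and the lists were chosen with earlier results of these data known. Same-numbered libraries did not deviate together, so the numbers were not used as pairs. Windows, overlap rules, list length, left-out libraries and the log2 scale were varied.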

Additional observations from a re-analysis of the deposited data

How the results depend on the processing

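Counting only peaks inside a gene gave 2 genes with a replicated METTL14 region in Mettl3 CKO cells, 3 in Mettl3 control cells and 1 in both. Of the wider list it gave 3 in CKO cells and 5 in control cells, while the share of all protein-coding genes was 1.79% in CKO cells and 2.26% in control cells. With METTL14 lists of equal length, 4 genes were replicated in CKO cells, 1 in control cells and 1 in both, and 5 of the wider list in CKO cells and 1 in control cells, against 2.22% of all protein-coding genes in CKO cells and 2.01% in control cells. Counting by gene gave 4 in both genotypes, the genes with a peak in all 4 METTL14 libraries, against 2.53% of all protein-coding genes. A 50% reciprocal overlap gave 1 in both genotypes. For the other counts in both genotypes, here and below, no share of all protein-coding genes is given. Fewer genes, peaks or libraries enter several of these settings by construction, and the cause of the other changes was not tested.

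Leaving out 1 library at a time, the difference in cell cycle genes with a METTL14 peak ranged from -3.5 (without Mettl3 CKO replicate 1) to 11.5, the METTL3 difference from -1 to 0 and the ratio difference from 0.978 to 1.49. With a single library left, the genes counted were 9 to 24 in CKO cells, 12 to 13 in control cells and 3 to 5 in both genotypes. The METTL3 count in Mettl14 control cells was 0 to 1. In the wider list the counts were 9 to 23 in CKO cells and 15 to 17 in control cells.

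As a replicate block, the differences were 4 (sign-flip exact permutation p = 1), -0.5 (exact p = 1) and 1.23 (exact p = 0.5, the smallest possible), and same-numbered libraries deviated with correlations of -0.0458 for METTL14 and -0.0588 for METTL3 over 21900 genes. On the log2 scale the METTL14 differences were 0.40 for the count and 0.61 for the ratio, with no value for METTL3, whose CKO mean is 0. Of 16 genes with a peak in 2 or more METTL14 libraries, the number of libraries held for 16 with a 1 kb window, 13 with 5 kb, 14 with boundary peaks only, 16 without regions called in all 8 libraries, 6 with peaks inside the gene only and 2 at equal list length. Unknown depth limits every absence of a peak.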
